A study of Danio rerio with 6 samples.

Results

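Cell cycle and DNA replication genes were examined in liver RNA of male zebrafish (Danio rerio). The 98 genes were matched by symbol, with earlier results of these data known when the list was set. The symbols were those of A, B, D and E cyclins (ccna, ccnb, ccnd, ccne), numbered cyclin-dependent kinases (cdk), MCM helicase genes (mcm), numbered cdc genes without cdc42, aurora kinases (aurk), plk1, bub and cenp genes, kif11, top2a, mki67 and pcna. They are 98 of 31953 gene IDs, and each ID was counted once. Control fish were kept with the ethanol vehicle, E2 fish with 1000 nM of the natural estrogen 17β-estradiol, and NP fish with 100 nM of nonylphenol, an alkylphenol that binds estrogen receptors weakly. All fish were male, all exposures lasted 3 weeks in flow-through water, and each group had 1 tank of 80 L with 40 fish, so tank and treatment cannot be told apart. Each group has 2 libraries. The labels give neither strain nor age and do not say whether a library is a single fish or a pool, so the tests rest on a spread between libraries that can be technical.

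D-type cyclins with Cdk4 and Cdk6 carry a cell through G1, and cyclin E with Cdk2 starts DNA synthesis. The MCM2 to MCM7 proteins form the ring helicase that opens DNA at replication origins, and PCNA is the clamp that holds polymerases on the template. Cyclin A then serves S phase and G2, cyclin B with Cdk1 drives mitosis, and the anaphase-promoting complex (APC/C) ends it by marking cyclins for destruction. Hepatocytes of an adult liver are mostly out of the cycle and can re-enter it after tissue loss or mitogens, and cyclin D1 is the classic early step of that re-entry in rodents. Many of the 98 symbols carry cdc or cdk names but work elsewhere, for example cdk9 and cdk12, which act in transcription.

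The deposited values are the authors' 2 comparisons, each exposure against the same controls, with a mean of normalised reads per gene. Whole reads per library were recovered from those means for all 98 genes. A library is called the deeper or the shallower of its group by its size factor, because the steps in the means cannot be tied to a named sample. Over the recovered genes of the whole tables the libraries held 447700 and 257368 reads in control, 229728 and 17149 in E2, and 246514 and 241138 in NP, deeper library first. Normalised reads are reads divided by the authors' size factors on the scale of the E2 comparison, and 1 read is worth 5.35 normalised reads in the shallower E2 library and 0.904 in the deeper. The hepatocyte transcripts tfa (transferrin) and fabp10a (liver fatty acid binding protein) had deposited means of 12684 and 1016 in the E2 comparison and of 61346 and 5378 in the NP comparison. These means are on different scales and cannot be compared directly. A read of the deeper control adds 0.0935 to a mean of the E2 comparison and 0.165 to one of the NP comparison. Of the 98 genes 84 had a read in any library, 42 had 10 or more reads over the 6 libraries, and 14 had none. The 98 genes together held 2552 reads, and the median gene with reads held 9.5.

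No member passed in either comparison at an adjusted p under 0.05 in the authors' deposited tables. For E2 against control 0 of the 5 members with an adjusted p passed (ccnd1, cdk2, pcna, aurkaip1 and cdc34b), where 5.77% of all genes with an adjusted p passed. By the authors' DESeq2 fit 2 of 78 members had an unadjusted p under 0.05, cdk2 and cdc26, against 5.64% of all genes. With limma-voom on the recovered reads 0 of 42 members passed, where 0.0% of 10574 genes passed, and 3 members (ccnd1, mcm8 and cdc26) had an unadjusted p under 0.05, against 13.6% of all genes. For NP against control 0 of 22 members with an adjusted p passed in the authors' deposited table, where 2.94% of all genes passed, and 0 of 83 had an unadjusted p under 0.05, against 4.02%. Limma-voom also passed 0 of 42 members for NP, where 0.0% of genes passed, with 0 at an unadjusted p under 0.05, against 6.56%. An exact permutation test of 2 libraries against 2 cannot go below a p of 0.333.

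**Figure D1:**
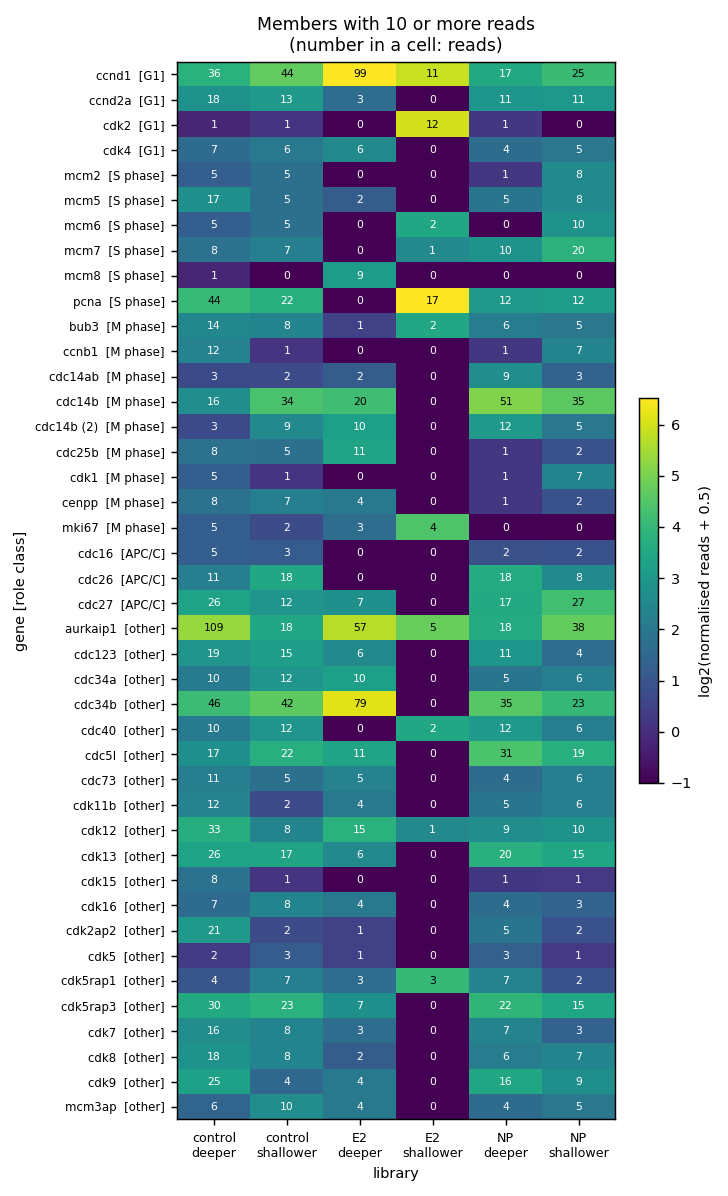
Recovered reads of the 42 cell cycle members with 10 or more reads, by library (columns) and role class (in brackets). Colour is log2 of normalised reads plus 0.5 and the number in a cell is the read count. Most cells of the shallower E2 library are at 0, and its reads lie mainly in pcna, cdk2, ccnd1, aurkaip1 and mki67.

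Among the G1 genes, cyclin D1 was higher in both E2 libraries than in both controls, a difference that did not pass. The gene ccnd1 (ENSDARG00000101637) had 36 and 44 reads in the deeper and shallower control, 99 and 11 in E2, and 17 and 25 in NP. In normalised reads these were 13.5 and 25.9 in control, 89.5 and 58.8 in E2, and 11.3 and 17.1 in NP. Both E2 libraries lay above both controls, and the NP libraries overlapped the controls. The mean was 19.7 ± 8.78 normalised reads in control, 74.1 ± 21.7 in E2 and 14.2 ± 4.1 in NP (SD, n = 2 each), a ratio of means of 3.77 for E2 and 0.72 for NP. The authors' deposited table gave a log2 fold change of 1.79 ± 1.06 (authors' SE; adjusted p = 0.371) for E2 and -0.42 ± 0.84 (adjusted p = 0.999) for NP. Limma-voom gave 2.03 ± 0.72 (SE; adjusted p = 0.297) for E2. Scaling each library by its summed recovered reads left the order of the groups, with 7.37 and 15.7 in control against 39.5 and 58.8 in E2. In whole tissue, fewer cells of a type and less RNA per cell cannot be told apart.

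The other D and E cyclins and their kinases did not share this pattern. Cyclin D2 (ccnd2a) had 18 and 13 reads in control, 3 and 0 in E2, and 11 and 11 in NP. Its E2 libraries lay below both controls, and the authors' deposited table gave -1.57 ± 1.57 for E2 and 0.04 ± 0.99 for NP. The cyclin D partner cdk4 had 7 and 6 reads in control, 6 and 0 in E2, and 4 and 5 in NP, and its groups overlapped. The E cyclins ccne1 and ccne2, which start S phase with Cdk2, held 4 and 6 reads over all libraries, ccnd3 held 3, cdk21 held 3, cdk6 held 1 and ccnd2b held 0. Without ccnd1 and cdk2, the summed level of the G1 genes was 10.8 and 13.5 normalised reads in control, 10.8 and 0 in E2, and 11.3 and 13.7 in NP. A count of 0 in the shallower E2 library allows up to 3 reads of 5.35 normalised reads each, so a lower level there was not detectable.

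The S phase kinase cdk2 (ENSDARG00000026577) had the smallest p of the members in E2, and its reads lay in a single library. It had 1 and 1 reads in control, 0 and 12 in E2, deeper library first, and 1 and 0 in NP. The shallower E2 library thus stood at 64.1 normalised reads, and each of the other 5 at 0.663 or less. The authors' deposited table gave a log2 fold change of 4.65 ± 1.64 (p = 0.00451, adjusted p = 0.0649). The ratio of means of the recovered normalised reads was 66.7, and both values rest on those 12 reads. Limma-voom, which averages the libraries on the log scale, gave 0.95 ± 1.85 (adjusted p = 0.849), and without the shallower E2 library too few reads were left to test the gene. Without the deeper E2 library limma-voom gave 6.69. Between the 2 E2 libraries cdk2 differed by at least 23.7-fold, counting the 0 as 3 reads.

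**Figure D2:**
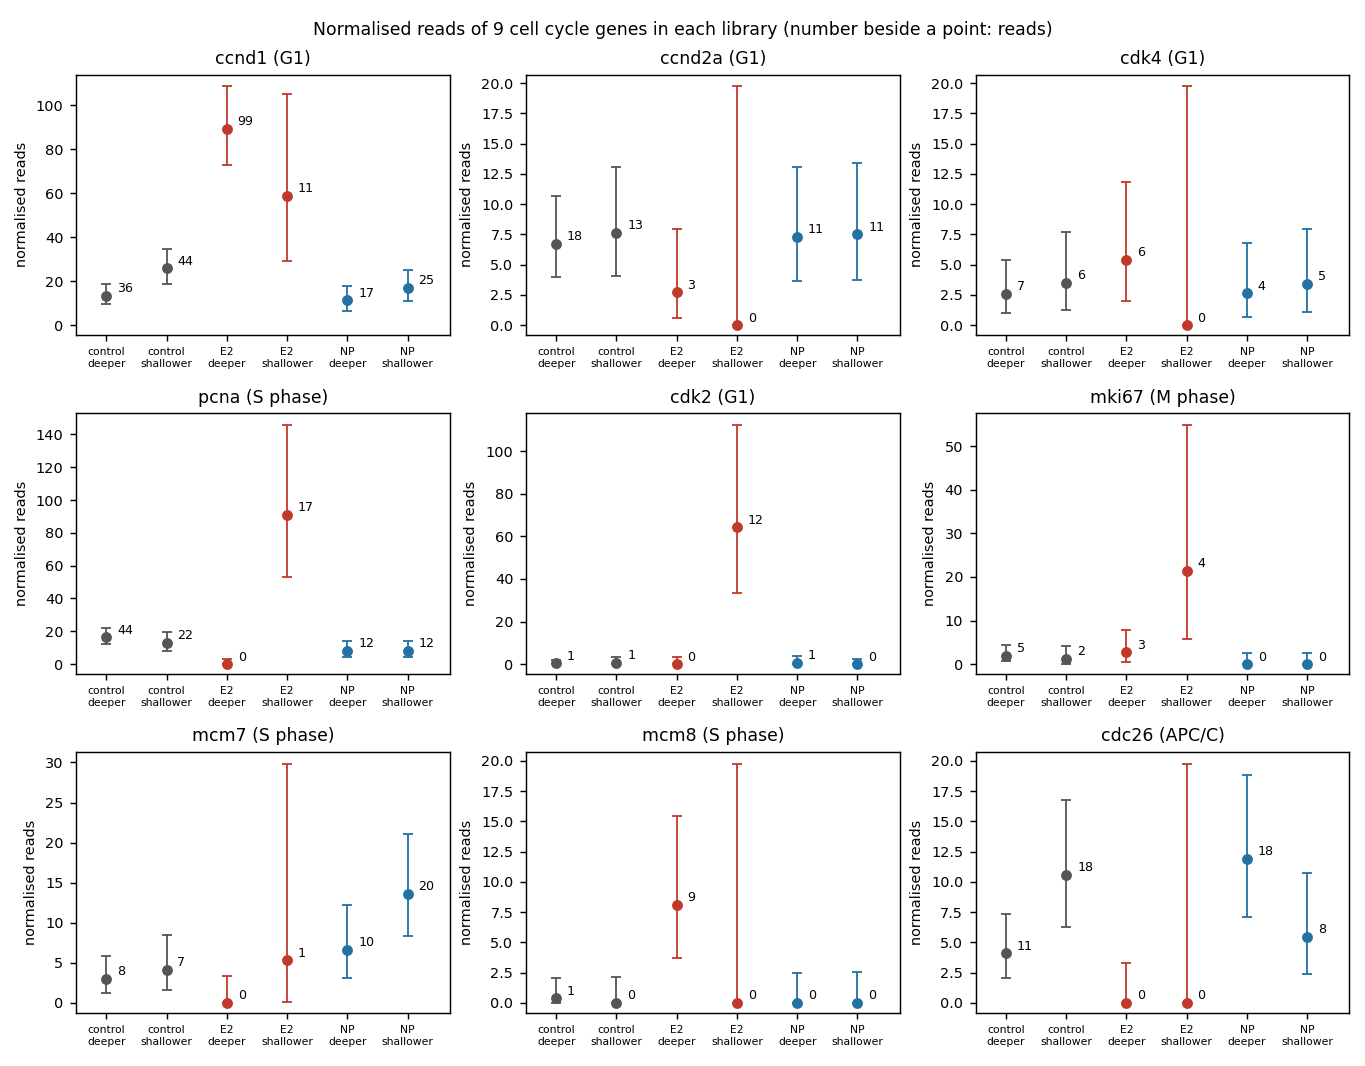
Normalised reads (vertical axis) of 9 cell cycle genes in the 6 libraries, with exact Poisson 95% intervals, which cover counting error only, and the read count beside each point. For ccnd1 both E2 libraries lie above both controls, while pcna and cdk2 are high in the shallower E2 library and at 0 reads in the deeper one.

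Among replication genes, pcna gave opposite values in the 2 E2 libraries, and most others had few reads in both. The clamp gene pcna (ENSDARG00000054155) had 44 and 22 reads in control, 0 and 17 in E2, deeper first, and 12 and 12 in NP. In normalised reads these were 16.5 and 12.9 in control, 0 and 90.9 in E2, and 7.95 and 8.19 in NP. The deeper E2 library was below both controls and the shallower above both. They were at least 33.5-fold apart with the 0 counted as 3 reads and the 17 reads taken as exact. Both NP libraries were below both controls. The authors' deposited table gave 1.31 ± 1.53 (adjusted p = 0.722) for E2, whereas limma-voom gave the opposite sign, -3.12 ± 1.69 (adjusted p = 0.456). For NP the deposited value was -0.77 ± 0.90 (adjusted p = 0.999), and the ratio of means of the recovered normalised reads was 0.549. Wide gaps inside the E2 pair were not confined to cell cycle genes. Genes with 50 or more normalised reads had a median fold of 3.87 from one E2 library to the other. The same median was 1.93 for the control pair and 1.35 for the NP pair. Whether cell cycle genes exceeded this wider E2 spread was not tested.

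The helicase genes mcm2 to mcm7 summed to 40 and 27 reads in control, 2 and 5 in E2, and 17 and 48 in NP. Their summed level was 14.96 and 15.89 normalised reads in control. In E2 the deeper library stood at 1.81 (exact Poisson 95% interval 0.219 to 6.53) and the shallower at 26.7 (8.68 to 62.4), intervals that do not overlap. The reads of the shallower library lay in mcm3, mcm6 and mcm7. In the deeper E2 library 5 of these 6 genes had no read, and mcm5 had 2. Gene by gene, mcm2 had 5 and 5 reads in control against 0 and 0 in E2, and mcm5 had 17 and 5 against 2 and 0. For mcm4 there were 3 and 3 against 0 and 0, and for mcm3 2 and 2 against 0 and 2. For mcm6 there were 5 and 5 against 0 and 2, and for mcm7 8 and 7 against 0 and 1. In normalised reads the shallower E2 library lay above both controls for mcm3 and mcm6 (10.7 each) and for mcm7 (5.35), on 2, 2 and 1 reads. The exact Poisson 95% interval of 2 reads there, 1.29 to 38.6, takes in both controls of mcm6 (1.87 and 2.94). It does not reach those of mcm3 (0.748 and 1.18), which had 2 reads each. The interval of 1 read, 0.135 to 29.8, takes in both controls of mcm7 (2.99 and 4.12). The deposited E2 values were 1.60 for mcm3, 0.62 for mcm6 and -0.79 for mcm7. They were -2.43 for mcm2, -1.81 for mcm4 and -1.43 for mcm5. The reads of mcm3 and mcm6 could be shared with their close copies mcm3l and mcm6l, which were listed at 0 reads.

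Other replication members were near the limit of detection. The origin licensing factor cdc6 had 4 and 1 reads in control, 1 and 0 in E2, and 1 and 2 in NP. The kinase gene cdc7, which activates the helicase, had 2 and 2 reads in control and 0 in all 4 treated libraries. The helicase cofactor cdc45 and mcm9 had 1 read each, in the shallower NP library, and cyclin A2 (ccna2) had 3 and 2 reads in control, 0 and 0 in E2, and 1 and 1 in NP. The gene mcm8, a helicase of DNA repair, was the exception in the deeper E2 library. It had 1 and 0 reads in control, 9 and 0 in E2, and 0 and 0 in NP. The authors' deposited value was 3.08 ± 1.86, and limma-voom gave 4.03 ± 1.17 (adjusted p = 0.26).

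Summed over the S phase class, the level was 35.2 and 31.8 normalised reads in control, 10.8 and 118 in E2, and 20.5 and 44.4 in NP. Without pcna it was 18.7 and 18.8 in control, 10.8 and 26.7 in E2, and 12.6 and 36.2 in NP, and the exact Poisson 95% intervals of the 2 E2 libraries (5.603 to 18.9 and 8.68 to 62.4) overlap. The G1 class in contrast was on the same side in both E2 libraries, at 100.3 and 122.95 against 24.7 and 40.0 in control, where ccnd1 made up 99 of 111 reads in the deeper E2 library and ccnd1 with cdk2 all 23 in the shallower. The deeper E2 library thus combined a higher ccnd1 level than control with 0 reads of pcna, and the shallower held reads of both.

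**Figure D3:**
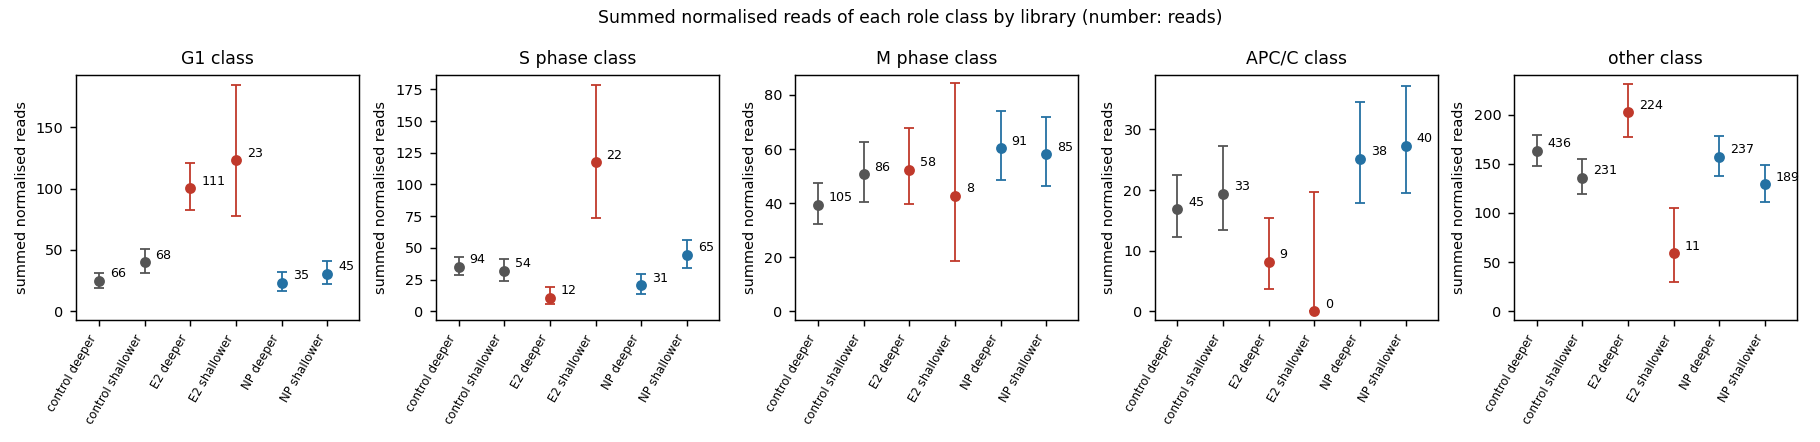
Summed normalised reads of the G1, S phase, M phase, APC/C and other members in each library, with exact Poisson 95% intervals (counting error only) and the read count. The G1 sum is 100.3 and 122.95 in E2 against 24.7 and 40.0 in control, while the S phase sum in E2 is 10.8 for the deeper library and 118 for the shallower.

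Mitotic genes had few reads in every group. The proliferation marker mki67, which coats mitotic chromosomes, had 5 and 2 reads in control, 3 and 4 in E2, and 0 and 0 in NP. In normalised reads it stood at 1.87 and 1.18 in control, 2.71 and 21.4 in E2, and 0 in NP. With 3 reads allowed over the NP group and the 7 control reads taken as exact, it was at least 1.51-fold below control. Its E2 libraries were both above and its NP libraries both below the controls. A 0 in a single NP library allows up to 1.99 (deeper) or 2.05 (shallower) normalised reads, above both controls. The E2 value by limma-voom was 1.83, and it was 3.74 without the deeper and 0.81 without the shallower E2 library. The authors' deposited values were 2.35 ± 1.45 for E2 and -1.79 ± 1.42 for NP, without adjusted p. The mitotic kinase cdk1 had 5 and 1 reads in control, 0 and 0 in E2, and 1 and 7 in NP. Its cyclin ccnb1 had 12 and 1, 0 and 0, and 1 and 7 in the same order. The anaphase activator cdc20 had 4 and 2 reads in control, 0 and 0 in E2, and 0 and 2 in NP. With 3 reads allowed over the E2 group and the 13 control reads taken as exact, ccnb1 was at least 1.09-fold lower in E2. Of those control reads 12 lay in the deeper library. The 6 control reads of cdk1 give no bound above 1.

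The topoisomerase top2a, which untangles chromosomes, had 1 and 1 reads in control, 0 and 0 in E2, and 2 and 4 in NP. The spindle motor kif11 had 2 and 0, 0 and 0, and 2 and 1. The aurora kinase gene aurka, of the spindle poles, had 4 and 1, 0 and 0, and 0 and 3, and aurkb, of the chromosomal passenger complex, had 3 and 1, 0 and 0, and 1 and 1. The polo kinase gene plk1 had 1 and 0, 2 and 0, and 0 and 3. The spindle checkpoint gene bub1 had 1 read in all, in the shallower E2 library, and this single read gave a deposited log2 fold change of 2.95 ± 2.02. The centromere gene cenpk had 1 read in the shallower control and 1 in the shallower E2 library, and its deposited value was 1.70 ± 1.97. The checkpoint gene bub3 had 14 and 8 reads in control, 1 and 2 in E2, and 6 and 5 in NP. In normalised reads it stood at 5.24 and 4.71 in control and at 0.904 and 10.7 in E2, on either side of the controls. The exact Poisson 95% interval of 2 reads in the shallower E2 library, 1.29 to 38.6, takes in both bub3 controls. The deposited E2 value of bub3 was -0.12 ± 1.48.

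The 14 cenp genes, most of which encode centromere proteins, held 61 reads together, and 12 of the 14 had a read. Their summed level was 8.60 and 10.6 normalised reads in control, 8.13 and 5.35 in E2, and 3.31 and 3.41 in NP, so that both NP libraries lay below both controls on 5 reads each. Of these, cenpp had the most reads, with 8 and 7 in control, 4 and 0 in E2, and 1 and 2 in NP, and its deposited NP value was -1.26 ± 1.31. The phosphatase cdc25b, which switches on Cdk1, had 8 and 5 reads in control, 11 and 0 in E2, and 1 and 2 in NP. The summed M phase level was 39.3 and 50.6 normalised reads in control, 52.4 and 42.8 in E2, and 60.3 and 58.0 in NP, but the cdc14 phosphatase genes made up a large part of its 433 reads. The cdc14b gene ENSDARG00000021483 had 16 and 34 reads in control, 20 and 0 in E2, and 51 and 35 in NP, and both NP libraries were above both controls (deposited 1.06 ± 0.85, adjusted p = 0.958). A second gene ID with the same symbol, ENSDARG00000097367, had 3 and 9, 10 and 0, and 12 and 5 reads, and reads shared between them could be divided either way. The related cdc14ab had 3 and 2 reads in control, 2 and 0 in E2, and 9 and 3 in NP.

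APC/C subunits, which mark mitotic cyclins for destruction, had few reads in E2. The small subunit gene cdc26 had 11 and 18 reads in control, 0 and 0 in E2, and 18 and 8 in NP. It was at least 3.17-fold lower in E2 with 3 reads allowed over the group as a whole and the 29 control reads taken as exact. In the shallower E2 library alone a 0 allows up to 16.04 normalised reads, above both controls (4.11 and 10.6). That library by itself cannot place cdc26 below control. The authors' deposited value was -3.81 ± 1.87, without an adjusted p. Limma-voom gave -2.93 ± 1.27 (adjusted p = 0.366), and -1.34 without the deeper and -3.88 without the shallower E2 library. The subunit cdc27 had 26 and 12 reads in control, 7 and 0 in E2, and 17 and 27 in NP, with E2 libraries below and NP libraries above both controls. For cdc16 there were 5 and 3 reads in control, 0 and 0 in E2, and 2 and 2 in NP, and for cdc23 3 and 0, 2 and 0, and 1 and 3. The class summed to 16.8 and 19.4 normalised reads in control, 8.13 and 0 in E2, and 25.2 and 27.3 in NP.

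Low E2 values were common across the tables and the members did not exceed that background. Of the 42 members with 10 or more reads, 15 had E2 libraries below both controls (35.7%), against 36.6% of 10574 genes, and 2 had E2 libraries above both, ccnd1 and mki67 (4.76%), against 6.41%. In all 15 the shallower E2 library had 0 reads, a count that allows up to 16.04 normalised reads. The median deposited log2 fold change over 78 members was -0.55 for E2, and over all 17208 genes with a fold change -0.52. The summed level of all members went the other way, at 374 and 342 normalised reads in E2 against 279 and 278 in control. The exact Poisson 95% interval of the shallower E2 library, 263 to 437, takes in both controls. Scaled by summed recovered reads, the sum was 165 and 342 in E2 against 153 and 168 in control. By class the E2 medians were -0.18 for 9 G1 genes, -0.79 for 11 S phase genes, -0.39 for 28 M phase genes, -1.49 for 4 APC/C genes and -0.56 for 26 other members. Members whose single read of the comparison lay in a control library all had a deposited value of -0.55 or -0.39, which is where the median of all members and that of the M phase lie. Of the 14 members with a read in the shallower E2 library, 6 also had one in the deeper.

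**Figure D4:**
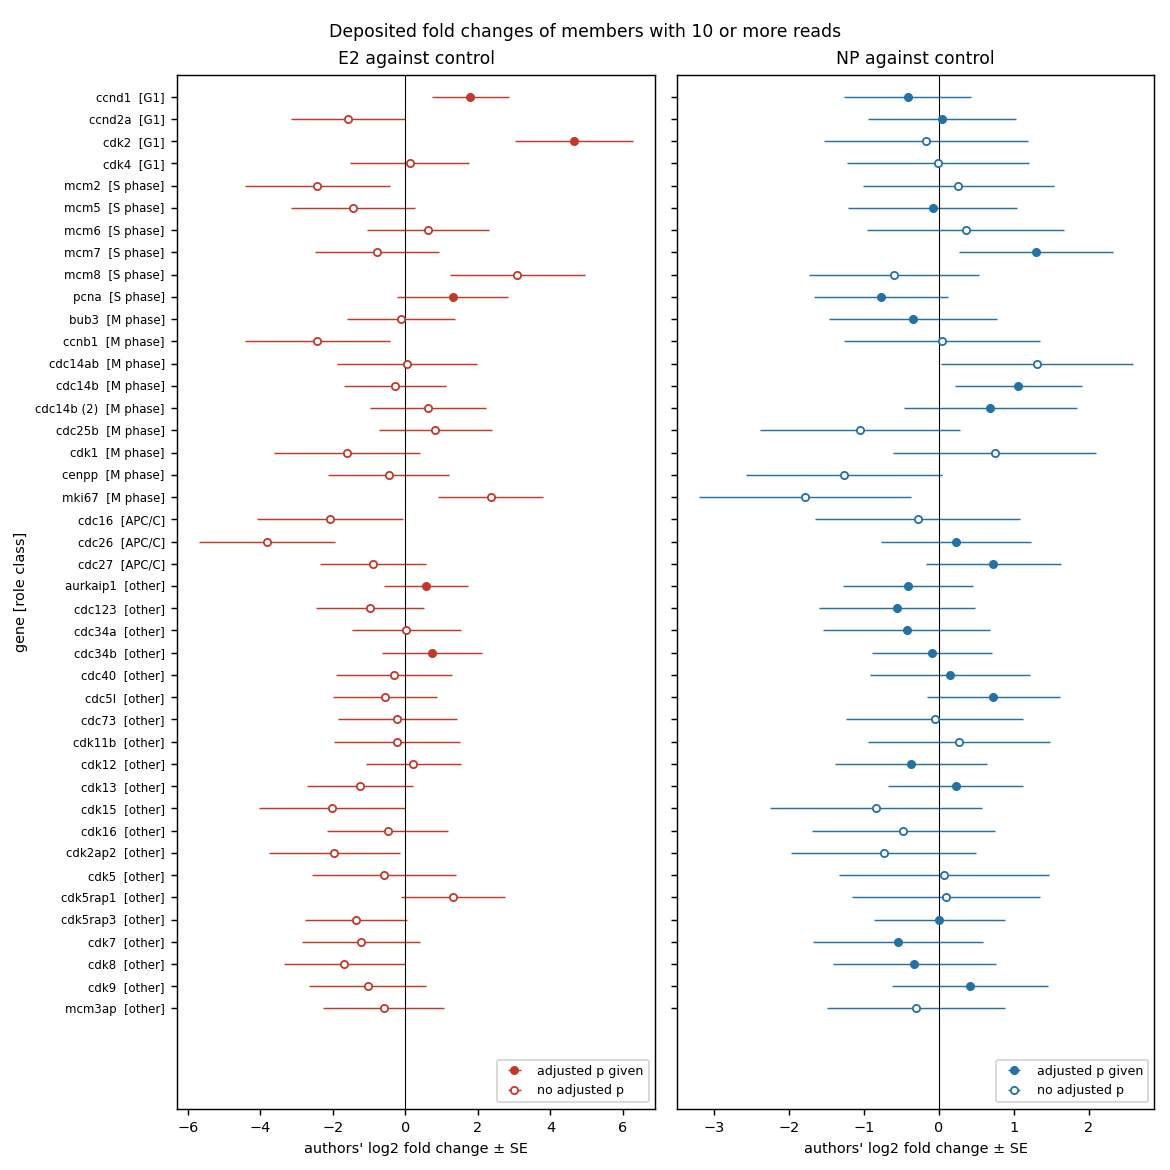
The authors' log2 fold changes (horizontal axis, bars are the authors' SE) of the 42 members with 10 or more reads for E2 (left) and NP (right) against control, on different scales. Filled points have an adjusted p. The largest E2 value, 4.65 for cdk2, rests on 12 reads of the shallower E2 library, and no filled point passed an adjusted p under 0.05.

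The class of other members, outside the G1, S phase, M phase and APC/C classes, held 1328 of the 2552 reads. Of its 26 members with a deposited E2 value 20 were below 0 and 6 above. Over all 17208 genes with a fold change 33.9% were above 0. The ubiquitin-conjugating enzyme gene cdc34b had 46 and 42 reads in control, 79 and 0 in E2, and 35 and 23 in NP. Its shallower E2 library had 0 reads. Counted as 3 reads, it lay at least 4.45-fold below the 71.4 normalised reads of the deeper, taken as exact. The deposited E2 value was 0.73 ± 1.37 (adjusted p = 0.843). The gene aurkaip1, a mitochondrial ribosome component first named for binding aurora A, had 109 and 18 reads in control, 57 and 5 in E2, and 18 and 38 in NP, and its groups overlapped. The transcription kinases cdk7, cdk8 and cdk9 had 16 and 8, 18 and 8, and 25 and 4 reads in control against 3 and 0, 2 and 0, and 4 and 0 in E2. Of these cdk7 and cdk8 had E2 libraries below both controls, and their deposited values were -1.22 ± 1.63 and -1.68 ± 1.66. Deposited E2 values of the further members with the smallest p of this class were -1.96 ± 1.81 for cdk2ap2, -2.03 ± 2.02 for cdk15 and -1.37 ± 1.41 for cdk5rap3. In NP the chaperone partner cdc37l1 had 4 and 3 reads against 0 and 1 in control (1.69 ± 1.42). The Cdk5 activator genes cdk5r2b and cdk5r2a held 7 and 1 reads in all. The splicing factor cdc5l had 17 and 22 reads in control, 11 and 0 in E2, and 31 and 19 in NP, a deposited NP value of 0.73 ± 0.89 (adjusted p = 0.999).

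In NP the members were close to control as a group, and their summed level was 286 and 289 normalised reads in the 2 NP libraries against 279 and 278 in control. The median deposited log2 fold change of 83 members was -0.04, against -0.08 for all 18067 genes. By class it was -0.01 for G1, -0.08 for S phase, -0.18 for M phase, 0.42 for APC/C and -0.03 for the others. Of the 42 members with 10 or more reads 6 had NP libraries above both controls (14.3%), against 18.7% of all genes, and 7 below (16.7%), against 23.5%. The highest deposited value among members with an adjusted p was that of mcm7, which had 8 and 7 reads in control and 10 and 20 in NP (1.29 ± 1.03, adjusted p = 0.954).

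Most of the mcm2 to mcm7 genes and a few mitotic genes had more reads in the shallower than in the deeper NP library. The depths of these libraries were similar. Some other members did not share this, with 12 and 12 reads for pcna, 6 and 5 for bub3, and 1 and 1 each for mcm3 and aurkb. The M phase sum was even, at 60.3 and 58.0 normalised reads. But the cdc14b gene ENSDARG00000021483 gave 51 of its 91 reads in the deeper and 35 of 85 in the shallower NP library. That sum therefore does not show how the remaining mitotic genes were divided. The genes mcm2, mcm6, cdk1 and ccnb1 had 1, 0, 1 and 1 reads in the deeper NP library and 8, 10, 7 and 7 in the shallower. The mcm2 to mcm7 sum was 11.3 normalised reads for the deeper (exact Poisson 95% interval 6.56 to 18.04) and 32.8 in the shallower (24.2 to 43.4). Between the 2 controls ccnb1 differed 7.63-fold, against 7.21-fold in NP, and cdk1 3.18-fold, against 7.21-fold. The controls were closer for mcm2 (1.57-fold, against 8.24-fold in NP) and mcm6 (1.57-fold, against at least 3.43-fold). Markers of testis germ cells also had more reads in the shallower NP library. All 9 listed markers (ddx4, dazl, piwil1, piwil2, sycp1, sycp3, dmrt1, tekt1 and tdrd1) had reads in the shallower NP library, 43 in all with 13 each for ddx4 and piwil1, while the deeper NP library and the shallower control had 1 read each and the other 3 libraries 0. Exocrine pancreas markers also differed, with 573 reads of 4 recovered markers for the deeper library and 1435 for the shallower, and red cell markers with 225 and 570. The part of these markers in the values was not tested. Without the shallower NP library, limma-voom gave 0.87 for mcm7 in place of 1.38.

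The shallower E2 library, where pcna, cdk2 and mki67 were high, had 0 reads of the germ cell markers. At its depth the exact Poisson 95% interval of that 0 reaches up to 19.7 normalised reads. The shallower NP library stood at 29.4 (21.2 to 39.5). The shallower E2 library held 17149 recovered reads in all. It also held 42 reads of the 4 pancreas markers, or 225 normalised reads, against 4 reads, or 3.61, in the deeper E2 library and 0 and 12 reads in control. Its red cell markers stood at 42.8 normalised reads against 17.2 in the deeper E2 library and 34.8 and 33.5 in control. Summed markers of other cell types differed between libraries as well, some by group and some in 1 library. The 7 recovered macrophage markers summed to 353 and 344 normalised reads in control, 112 and 69.5 in E2, and 52.4 and 88.7 in NP. Among them grn1 had 416 and 250 reads in control, 1 and 0 in E2, and 16 and 23 in NP. The markers did not all share this. In normalised reads both E2 libraries lay between the controls for cd74a (118 and 244 reads in control, 79 and 12 in E2), and marco had 177 and 4 reads in control. The 3 recovered bile duct markers summed to 35.5 and 58.2 in control, 9.04 and 10.7 in E2 (10 and 2 reads), and 31.1 and 34.8 in NP. Intestine markers had 515 reads in the shallower control and 0 to 4 in each other library, and T and B cell markers had 17 reads in the deeper control and 0 to 2 in each other library, with cd79a, cd79b, pax5 and rag1 at 0. The part of all these markers in the values was not tested.

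**Figure D5:**
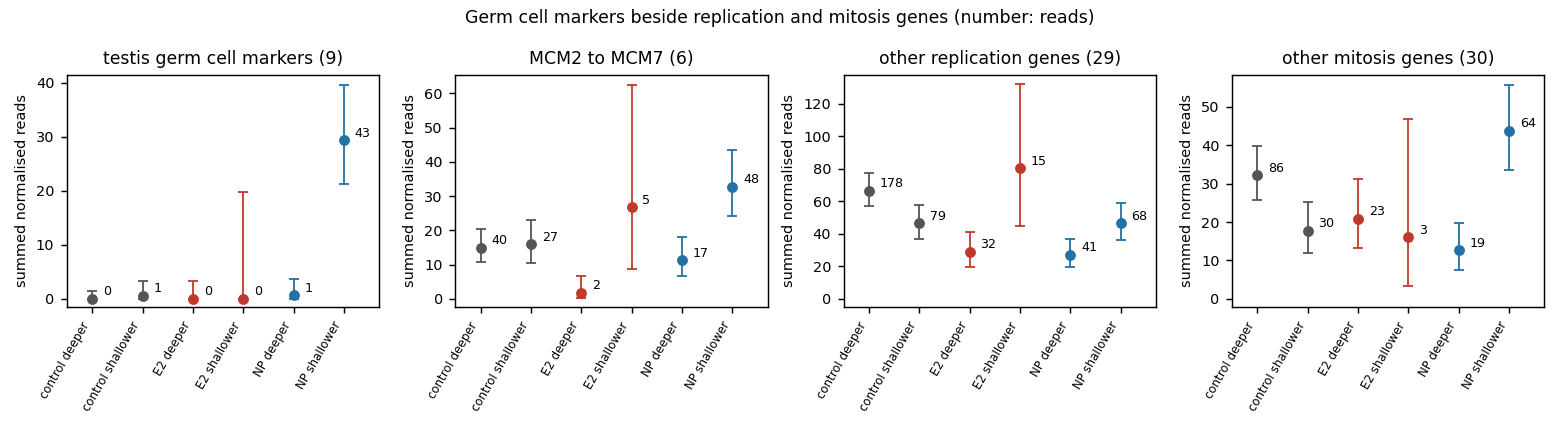
Summed normalised reads of 9 testis germ cell markers, of mcm2 to mcm7, and of 29 replication and 30 mitosis genes outside the member list, by library, with exact Poisson 95% intervals (counting error only) and read counts. The germ cell markers have 43 reads in the shallower NP library and at most 1 in any other.

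Other cell cycle genes were listed by symbol. Of 112 such genes 0 of 9 with an adjusted p passed in E2 and 0 of 16 in NP in the authors' deposited tables, where 5.77% and 2.94% of all genes passed. By the authors' DESeq2 fit 2 of 95 in E2 and 2 of 101 in NP had an unadjusted p under 0.05, against 5.64% and 4.02% of all genes. The 29 replication genes of this list (origin complex, GINS, polymerase, RPA and RFC genes among them) summed to 66.6 and 46.5 normalised reads in control, 28.9 and 80.2 in E2, and 27.2 and 46.4 in NP. In the shallower E2 library 7 of the 15 reads behind this sum came from the DNA ligase gene lig1, which had 0 reads in the deeper. The 30 mitosis genes summed to 32.2 and 17.7 in control, 20.8 and 16.04 in E2, and 12.6 and 43.7 in NP. The transcription factor foxm1, which drives mitotic genes, had 5 reads in the shallower E2 library, 0 in the deeper and in both controls, and 1 and 2 in NP, with a deposited E2 value of 5.17 ± 1.86, without an adjusted p.

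Among the listed genes that restrain the cycle, reads lay in a few, and cdkn1a (p21) held 5 in all. The antiproliferative gene btg2 had 35 and 63 reads in control, 4 and 0 in E2, and 20 and 30 in NP, with a deposited E2 value of -2.84 ± 1.40 (adjusted p = 0.234). The inhibitor cdkn1bb (p27) had 50 and 49 reads in control, 189 and 6 in E2, and 42 and 37 in NP (deposited E2 value 1.94 ± 1.14, adjusted p = 0.364). In normalised reads both its E2 libraries, at 171 and 32.1, lay above both controls (18.7 and 28.8). In NP the stress gene gadd45ga had 81 and 48 reads against 457 and 144 in control, a deposited value of -1.47 ± 0.72 (adjusted p = 0.499). Its relative gadd45bb had 0 and 0 reads in NP against 34 and 1 in control (-3.59 ± 1.39, without an adjusted p), and 34 of those 35 control reads were in the deeper library.

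The comparisons with control share their control libraries, so NP was set against E2 directly with limma-voom, at doses that differ. In this fit 0 of 42 members passed, where 0.0% of genes passed, and 6 had an unadjusted p under 0.05 (14.3%), against 16.0% of all genes. Cyclin D1 was lower in NP than in E2 by -2.42 ± 0.74 (log2, SE; adjusted p = 0.207), and its 2 NP libraries lay below both E2 libraries. The others were mki67 (-4.22 ± 1.51), mcm8 (-4.37 ± 1.24) and cdc25b (-2.61 ± 0.93), lower in NP, and mcm7 (3.41 ± 1.19) and cdc26 (3.21 ± 1.27), higher in NP. All E2 reads of mcm8 (9) and cdc25b (11) lay in the deeper library, so these 2 values rest on 1 E2 library. The E2 libraries held 0 and 1 reads of mcm7 and 0 and 0 of cdc26.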

How the data were processed

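RNA sequencing libraries of male zebrafish liver were compared in 3 groups of 2. The submitters' processing notes name TopHat2, HTSeq and DESeq2 and the build GRCz10; versions and settings are not given in the sources used here. Per the file headers, the authors' tables, 1 for each exposure, give a signal per gene, the mean of reads divided by size factors. Per the file headers, the authors also gave a log2 fold change with its standard error, a test score (fold change over error), and a p-value plain and adjusted. The deposited adjusted p-values start at a mean of 12.6 for E2 and 6.64 for NP. Repeated rows of an ID were identical and counted once.

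The tables hold no values per library, so the authors' deposited test is the main result, at an adjusted p under 0.05. Low means are sums of 4 fixed steps, the worth of 1 read in each library. Solving both tables together gave whole reads for 18238 of 18593 genes with reads (98.1%), up to a mean of 400; 17236 genes were also solved from either table by itself, and the control reads matched in all 17236. The recovered genes hold 36.1% and 26.9% of the summed means. Steps of controls are those whose single reads give a fold change under 0. Recovered reads of genes with 10 or more were tested with limma 3.58.1 (voom, authors' size factors, all 6 libraries), which also replaced the count model planned for NP against E2. Recovery and test were tested on simulated data. Poisson intervals (95%) and floors (3 reads) cover counting error only. Folds given as at least count a 0 as 3 reads and take the reads on the other side as exact.

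Members, role classes and gene lists were chosen with earlier results of these data known. The text names ccnd1, mki67, pcna, top2a, cdk1, ccnb1 and mcm2 to mcm7. It also names members with the 4 smallest p of a class or the 5 highest means, and listed genes with the smallest p. To show their reads, plk1, kif11, aurora and other members were added, as were the listed genes lig1, cdkn1a, cdkn1bb and gadd45ba. Current symbols were matched for 97 of the 98. No coordinates are given, since the reference table has another build.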

Additional observations from a re-analysis of the deposited data

Results flagged for a closer look

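In 3 members with 10 or more reads every E2 library lay on one side of both controls and every NP library on the other. They were mki67 (14 reads over the 6 libraries; E2 above and NP below), cdc27 (89 reads; E2 below and NP above) and cdk13 (84 reads; E2 below and NP above). Of all 10574 genes 36.6% had E2 libraries below both controls and 18.7% had NP libraries above both. For E2 above and NP below the shares were 6.41% and 23.5%. The share of all genes with both at once was not computed. In the direct comparison by limma-voom, NP minus E2 was -4.22 ± 1.51 for mki67 (SE; adjusted p = 0.257), 1.35 ± 0.82 for cdc27 (adjusted p = 0.451) and 1.22 ± 0.79 for cdk13 (adjusted p = 0.481), so none passed. For cdc27 and cdk13 the shallower E2 library had 0 reads, which allows up to 16.04 normalised reads, above both controls (9.72 and 7.06; 9.72 and 10.0), so that library cannot place them below control. For mki67 the 0 reads of the deeper and shallower NP library allow up to 1.99 and 2.05 normalised reads. Both limits are above both controls (1.87 and 1.18), so neither NP library alone can place mki67 below control. With libraries scaled by summed recovered reads, cdk13 no longer had NP libraries above both controls.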

How the results depend on the processing

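The counts of 0 members called were unchanged for NP against control and NP against E2 under every alternative run. For E2 they were unchanged under all but an adjusted p under 0.1, which called 1 of the 5 members with an adjusted p (cdk2). The share of all genes at that threshold is not given here. The cdk2 value rests on 12 reads of the shallower E2 library, with 0 in the deeper. Many of the alternatives were limma-voom fits. With all 6 libraries limma-voom passed 0 of 10574 genes in each comparison, so its count of 0 does not set the members apart from other genes. The pcna value for E2 turned from 1.31 to -3.12 with limma-voom, -2.33 with genes of at least 1 read and -4.38 with summed reads as library sizes. Leaving out a library gave it -5.04 to 2.66 (above 0 only without the deeper E2 library), and gave ccnd1 in NP -0.88 to 0.056. Class medians moved by more than the spread between libraries for members with a mean of at least 10: 3.22 for G1 in E2 (2 genes) and 1.06 for M phase in NP (1 gene). Leaving out each library gave medians of -0.67 to 0 (G1, E2), -0.67 to 0.13 (G1, NP), -1.22 to -0.23 (M phase, E2), -0.67 to 0 (M phase, NP) and -2.87 to -0.41 (other, E2). Log2 ratios used a pseudocount of 0.5. The cause was not tested. An arm left with 1 library is assumed to vary like the other groups. The planned refits of the recovered reads with count models were not run; limma-voom took their place. No APC/C gene reached a mean of 10 in E2. No paired analysis was possible because the labels give no replicate numbers and the recovered libraries cannot be tied to named samples. Depth is a limit: in the shallower E2 library 1 read equals 5.35 normalised reads.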
